A study of Mus musculus with 10 samples.

Results

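The IL-6, IL-1 and STAT3 signalling genes are 10 genes of mouse liver, namely Il6ra, Il6st, Osmr, Stat3, Socs1, Socs3, Il1b, Il1rn, Il1r1 and Nfkbia. They were chosen by name and found on the arrays through the RefSeq accession of each probe. All 10 were on the array and passed the filter on dim probes, among 26715 features tested. The study asked how livers of male C57BL/6N mice differ after gavage with ethanol at 7 g/kg (3 arrays) or 5 g/kg (4 arrays), against maltose at the calories of the lower dose (3 arrays). The maltose gavage was matched in calories to 5 g/kg only, no ungavaged group was analysed here, and the hours from gavage to collection are not stated in the labels. Liver RNA was labelled with Cy5 and hybridised beside a bought mixture of mouse RNA in Cy3, so a level is the log2 ratio of liver over that reference. The labels also call the tissue of the reference liver. Nothing states that replicates are separate animals, so p-values reflect only how far arrays of a group lay apart, which may be technical.

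IL-6 binds a receptor made of Il6ra and the shared chain Il6st (gp130), and oncostatin M uses Osmr with the same chain. Janus kinases then phosphorylate STAT3, which enters the nucleus and switches on acute-phase genes in hepatocytes, together with Socs3, the inhibitor that closes the loop. IL-1 acts through Il1r1 and its partner Il1rap, is held back by the antagonist Il1rn and the decoy Il1r2, and frees NF-kappaB from its inhibitor Nfkbia.

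Upstream DNA is shown for Stat3, Socs3 and Il6st, which were called at 7 g/kg, and for Nfkbia, which held a searched motif. Both windows of Il1r1 lie within the annotated span of the gene and are not shown. The sequences are from RefSeq, build GRCm38.p6, and all 10 members had at least 1 entry, 13 in all. Each is written 5′ to 3′ on the gene's own strand. Capitals mark a match to the STAT motif TTCNNNGAA in Socs3 and to the kappaB motif (GGGA and TTCC with any 2 bases between them), read on the other strand, in Nfkbia.
Stat3, chr11:100939595-100939790, minus strand: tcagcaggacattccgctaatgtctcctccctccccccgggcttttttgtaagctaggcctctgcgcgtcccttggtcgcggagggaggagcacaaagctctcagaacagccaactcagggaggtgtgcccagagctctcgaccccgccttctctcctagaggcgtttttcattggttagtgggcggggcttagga
Il6st, chr13:112463820-112464069, plus strand: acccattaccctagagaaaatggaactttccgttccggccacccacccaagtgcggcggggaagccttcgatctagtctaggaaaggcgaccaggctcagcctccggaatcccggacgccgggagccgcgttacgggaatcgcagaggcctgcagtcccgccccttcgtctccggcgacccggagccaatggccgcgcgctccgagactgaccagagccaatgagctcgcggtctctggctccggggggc
Socs3, chr11:117969501-117969530, minus strand: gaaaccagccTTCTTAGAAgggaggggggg
Nfkbia, chr12:55492648-55492897, minus strand: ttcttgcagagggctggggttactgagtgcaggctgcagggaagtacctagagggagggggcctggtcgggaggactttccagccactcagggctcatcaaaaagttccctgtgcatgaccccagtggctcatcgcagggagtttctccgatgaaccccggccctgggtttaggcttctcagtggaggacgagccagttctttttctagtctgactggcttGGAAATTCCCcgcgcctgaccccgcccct

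Both motifs were searched on both strands of the 250 bases before each start. The STAT motif was found in 7.02% of 32851 promoters, and among the 13 promoters of the members only in that of Socs3, at bases 154 to 146 before the start. The kappaB motif was found in 1.21% of promoters, and among the members only in that of Nfkbia, at bases 29 to 20 before the start. The Socs3 window lies within the annotated span of the gene, so 30 bases around the match are given, and for Stat3 the part upstream of the gene is given. A match is a description of letters and not of binding.

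After ethanol the IL-1 receptor and STAT3 transcripts were higher at both doses. Il1r1 was higher by 5.57-fold at 7 g/kg and 3.39-fold at 5 g/kg, and Stat3 by 2.51-fold and 1.88-fold at those doses. At 7 g/kg Socs3 was also higher, by 1.91-fold, and Il6st by 1.33-fold. In limma with Benjamini-Hochberg adjustment over all features, called at an adjusted p under 0.05, 4 of 10 members were higher and 0 lower at 7 g/kg, and 2 were higher and 0 lower at 5 g/kg. Of all features, 4.59% were called higher and 4.33% lower at 7 g/kg, and 2.17% higher and 1.55% lower at 5 g/kg. The median log2 change of the members was 0.26 at 7 g/kg and 0.13 at 5 g/kg, beside 0.0117 and 0.00275 over all features tested. The count at 7 g/kg was 2 with slide as a block, since Socs3 and Il6st no longer passed.

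**Figure D1:**
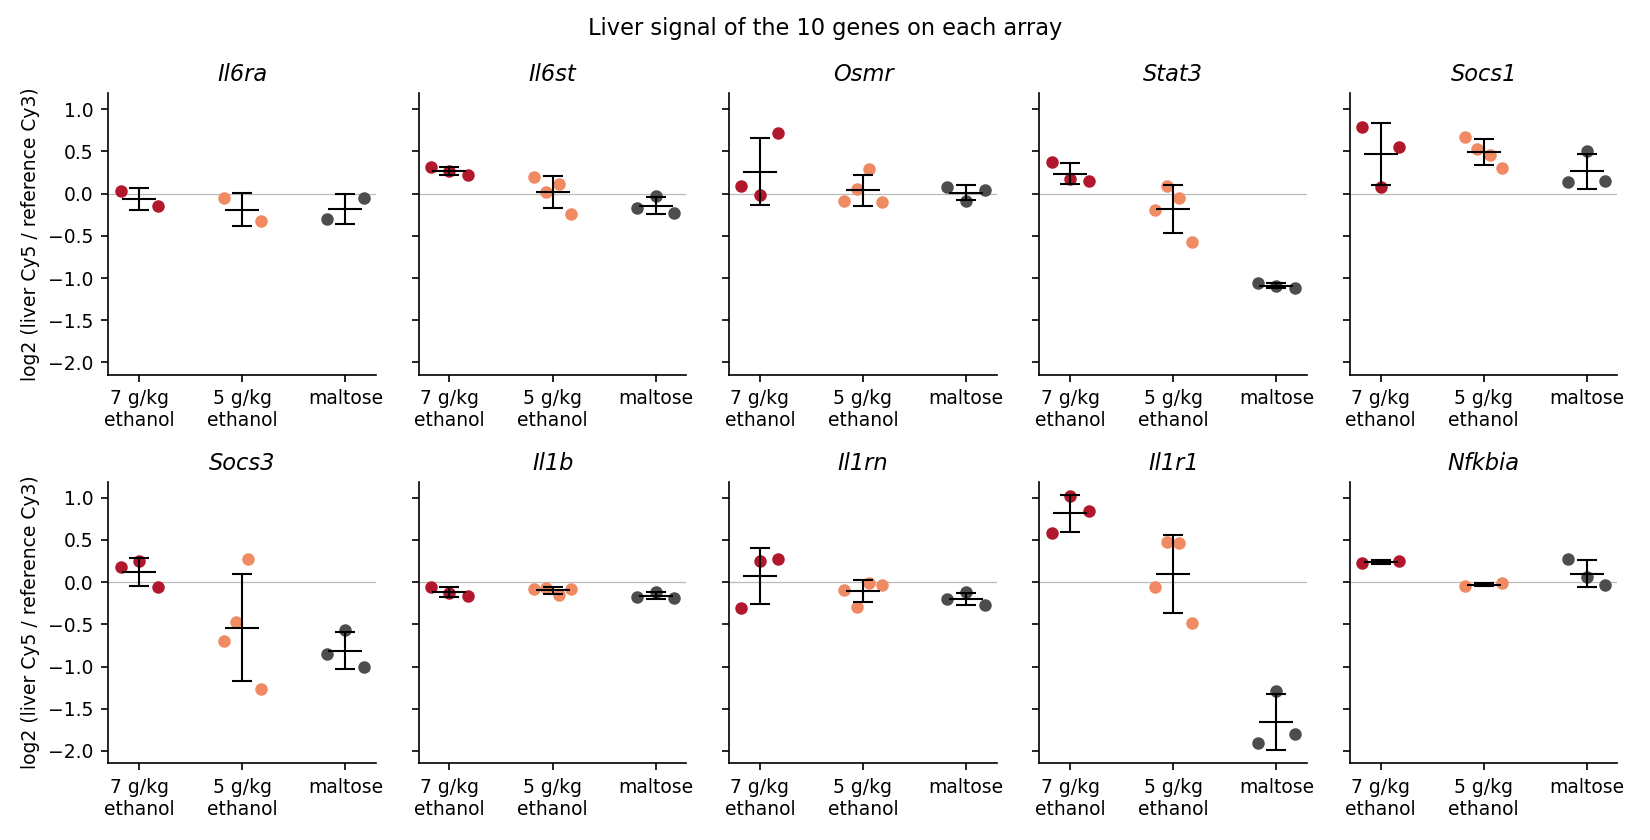
Log2 ratio of liver Cy5 over reference Cy3 (vertical axis) for the 10 genes on each array, by group; points are arrays, and bars are the mean and SD. Stat3 and Il1r1 on every ethanol array lie above all maltose arrays, while Il1b stays between -0.19 and -0.05.

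Il1r1, the signalling receptor of IL-1, had log2 ratios of 0.59, 1.02 and 0.84 at 7 g/kg, then -0.05, 0.48, 0.46 and -0.49 at 5 g/kg, and -1.90, -1.28 and -1.80 after maltose. All 7 ethanol arrays lay above all 3 maltose arrays, and the 7 g/kg arrays lay above the 5 g/kg arrays. The log2 change was 2.48 ± 0.231 (SE, 95% confidence interval 1.98 to 2.97, adjusted p = 1.56e-05) at 7 g/kg and 1.76 ± 0.216 (1.30 to 2.22, adjusted p = 0.000379) at 5 g/kg. Within slides that held both groups, it was 1.87 to 2.64 at 7 g/kg on 2 slides and 1.31 to 1.85 at 5 g/kg on 3 slides. The difference between the doses, 0.72 ± 0.216, did not pass (adjusted p = 0.156).

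Endothelial cells are among the cells that carry this receptor, and 9 of their markers were tested. Of these, 3 were called higher at 7 g/kg and 2 at 5 g/kg, and 0 were called lower. Of all features, 4.59% and 2.17% were called higher at those doses. Single markers changed by -0.28 to 1.72 at 7 g/kg, with a median of 0.16. The mean log2 ratio of the 9 ran from -0.08 to 0.04 at 7 g/kg, from -0.16 to 0.01 at 5 g/kg and from -0.47 to -0.28 after maltose, with no overlap between ethanol and maltose arrays. Of the 9 endothelial markers 8 stood well above background on all arrays, and none was below it on all. Stellate markers, 8 tested, ran from 0.10 to 0.19 at 7 g/kg, 0.08 to 0.22 at 5 g/kg and -0.33 to -0.07 after maltose, and 1 and 2 were called higher at those doses. Means of neutrophil (0.125 to 0.262) and lymphocyte markers (-0.144 to -0.0142) at 7 g/kg also lay above maltose. At 5 g/kg both overlapped with maltose. Means of hepatocyte markers lay above maltose at 5 g/kg (0.595 to 0.823 against 0.311 to 0.417) and overlapped with it at 7 g/kg. The share of all features apart in this way was not counted. The part of endothelial or stellate cells in the change of Il1r1 was not tested. In bulk liver more cells of a type and more RNA per cell cannot be told apart.

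Stat3, the transcription factor itself, was measured by 10 spots on each array, whose SD within an array was 0.0197 to 0.082. Its log2 ratios were 0.38, 0.18 and 0.15 at 7 g/kg, then -0.19, 0.09, -0.05 and -0.57 at 5 g/kg, and -1.06, -1.10 and -1.12 after maltose. The maltose arrays were close together, and every ethanol array lay above them. The log2 change was 1.33 ± 0.145 (SE, 95% confidence interval 1.02 to 1.64, adjusted p = 5.9e-05) at 7 g/kg and 0.91 ± 0.136 (0.62 to 1.20, adjusted p = 0.00169) at 5 g/kg. Within slides it was 1.27 to 1.47 at 7 g/kg and 0.55 to 1.18 at 5 g/kg. All 7 g/kg arrays lay above all 5 g/kg arrays, but that difference of 0.42 ± 0.136 did not pass (adjusted p = 0.21).

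Socs3, the feedback inhibitor, had log2 ratios of 0.18, 0.25 and -0.06 at 7 g/kg, then -0.69, -0.47, 0.27 and -1.27 at 5 g/kg, and -0.85, -0.57 and -1.01 after maltose. The 7 g/kg arrays lay above the maltose arrays, and the 5 g/kg arrays covered the range of both, with replicate 3 the highest of all 10 arrays and replicate 4 the lowest. The log2 change at 7 g/kg was 0.93 ± 0.268 (SE, 95% confidence interval 0.36 to 1.51, adjusted p = 0.0432). With slide as a block it was 0.71 (adjusted p = 0.0572), and within 2 slides it was 0.75 and 0.94. At 5 g/kg it was 0.27 ± 0.251 (adjusted p = 0.698). The difference between the doses was 0.66 ± 0.251 (adjusted p = 0.308). The call at 7 g/kg was lost without any 1 array of the 7 g/kg or the maltose group, and without 5 g/kg replicate 1 or 2. It was lost in 13 of 25 alternatives, over which the change was 0.71 to 1.05 with adjusted p of 0.00522 to 0.222.

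Socs1, a second inhibitor of Janus kinases, had log2 ratios of 0.79, 0.08 and 0.55 at 7 g/kg, then 0.67, 0.53, 0.46 and 0.30 at 5 g/kg, and 0.13, 0.51 and 0.15 after maltose. The groups overlapped, and neither change passed, at 0.21 for 7 g/kg (95% confidence interval -0.15 to 0.57, adjusted p = 0.574) and 0.23 for 5 g/kg (adjusted p = 0.563).

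**Figure D2:**
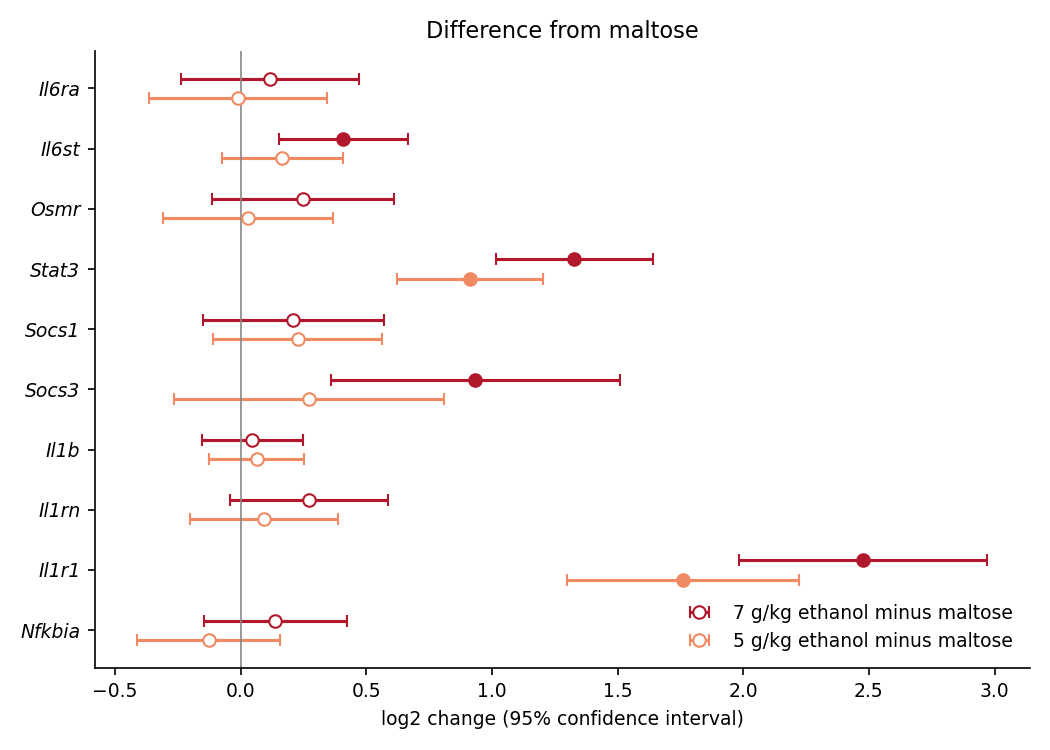
Log2 change from maltose (horizontal axis) with 95% confidence intervals for the 10 genes, 7 g/kg above 5 g/kg in each row; filled points passed at an adjusted p under 0.05. Il1r1 (2.48 and 1.76) and Stat3 (1.33 and 0.91) passed at both doses, Socs3 and Il6st at 7 g/kg.

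Il6st, the signal chain shared by IL-6, oncostatin M and their relatives, had log2 ratios of 0.31, 0.27 and 0.22 at 7 g/kg, then 0.19, 0.02, 0.12 and -0.24 at 5 g/kg, and -0.17, -0.03 and -0.22 after maltose. The 7 g/kg arrays lay above all others, and the 5 g/kg arrays overlapped with maltose. The log2 change at 7 g/kg was 0.41 ± 0.12 (SE, 95% confidence interval 0.15 to 0.67, adjusted p = 0.0477), and at 5 g/kg it was 0.17 (adjusted p = 0.554). With slide as a block the change at 7 g/kg was 0.42 (adjusted p = 0.0703), and within 2 slides it was 0.35 and 0.44. The difference between the doses was 0.24 (adjusted p = 0.457). The call was lost without any 1 array of the 7 g/kg or the maltose group, and without 5 g/kg replicate 2 or 3. It was lost in 14 of 25 alternatives, over which the change was 0.37 to 0.56 with adjusted p of 0.0248 to 0.172.

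Il6ra, the chain that binds IL-6, was represented by its brighter probe, which had 2 values in each group after outlier spots were left out. Its log2 ratios were 0.03 and -0.15 at 7 g/kg, -0.05 and -0.32 at 5 g/kg, and -0.30 and -0.05 after maltose. The groups overlapped, with changes of 0.12 at 7 g/kg (adjusted p = 0.786) and -0.01 at 5 g/kg (adjusted p = 0.989). A second probe had values on all 10 arrays, and its changes were -0.10 (adjusted p = 0.841) and -0.11 (adjusted p = 0.818) at those doses. Neither probe passed.

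Osmr, the oncostatin M receptor, was dim. Its log2 ratios were 0.09, -0.02 and 0.71 at 7 g/kg, then -0.08, 0.05, 0.30 and -0.10 at 5 g/kg, and 0.08, -0.09 and 0.05 after maltose. One array stood out, 7 g/kg replicate 3, and the rest overlapped. It was well above background on 2 arrays at 7 g/kg, on 2 at 5 g/kg and on 0 after maltose, so the maltose level has only a bound. The fitted changes, 0.25 at 7 g/kg (95% confidence interval -0.11 to 0.61, adjusted p = 0.488) and 0.03 at 5 g/kg (adjusted p = 0.964), did not pass. A second probe was above background on 1 array and was not tested.

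On the ligand side Il1b, the inducible IL-1 cytokine, was flat and faint. Its log2 ratios, each from 10 spots, were -0.05, -0.13 and -0.16 at 7 g/kg, then -0.08, -0.06, -0.15 and -0.09 at 5 g/kg, and -0.18, -0.12 and -0.19 after maltose. The groups overlapped, and the change was 0.05 at 7 g/kg (adjusted p = 0.87) and 0.06 at 5 g/kg (95% confidence interval -0.13 to 0.25, adjusted p = 0.812). The spot signal was well above background on 2 of 3 arrays at 7 g/kg, 3 of 4 at 5 g/kg and 2 of 3 after maltose, so a small change was not detectable at this signal.

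Il1rn, the secreted antagonist of Il1r1, had log2 ratios of -0.31, 0.25 and 0.28 at 7 g/kg, then -0.09, -0.29, 0.00 and -0.03 at 5 g/kg, and -0.20, -0.12 and -0.27 after maltose. At 7 g/kg replicate 1 was the lowest of all 10 arrays and the others were the highest. The change was 0.27 at 7 g/kg (adjusted p = 0.344) and 0.09 at 5 g/kg (adjusted p = 0.825), and it passed at 7 g/kg only without replicate 1. A second probe gave 0.31 (adjusted p = 0.442) and 0.12 (adjusted p = 0.838).

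Nfkbia, the inhibitor that NF-kappaB induces, had log2 ratios of 0.22 and 0.25 at 7 g/kg, -0.04 and -0.01 at 5 g/kg, and 0.27, 0.06 and -0.04 after maltose; 3 values were left out as outlier spots. Ethanol and maltose arrays overlapped, with changes of 0.14 at 7 g/kg (adjusted p = 0.656) and -0.13 at 5 g/kg (adjusted p = 0.731).

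Between the doses, 7 minus 5 g/kg, limma called 0 of 10 members, beside 0.648% of all features called higher and 0.891% lower. At an unadjusted p under 0.05 there were 4, namely Il1r1, Stat3, Socs3 and Il6st, all higher at 7 g/kg, beside 10.8% of all features at that threshold in either direction. Of the 8 members with a value on every 5 g/kg array, 6 had their lowest value on replicate 4. The same share over all features was not counted. Replicate 4 also had the lowest median of the target genes described next among the 5 g/kg arrays. Without it, the calls of Stat3 and Il1r1 at 5 g/kg stood.

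**Figure D3:**
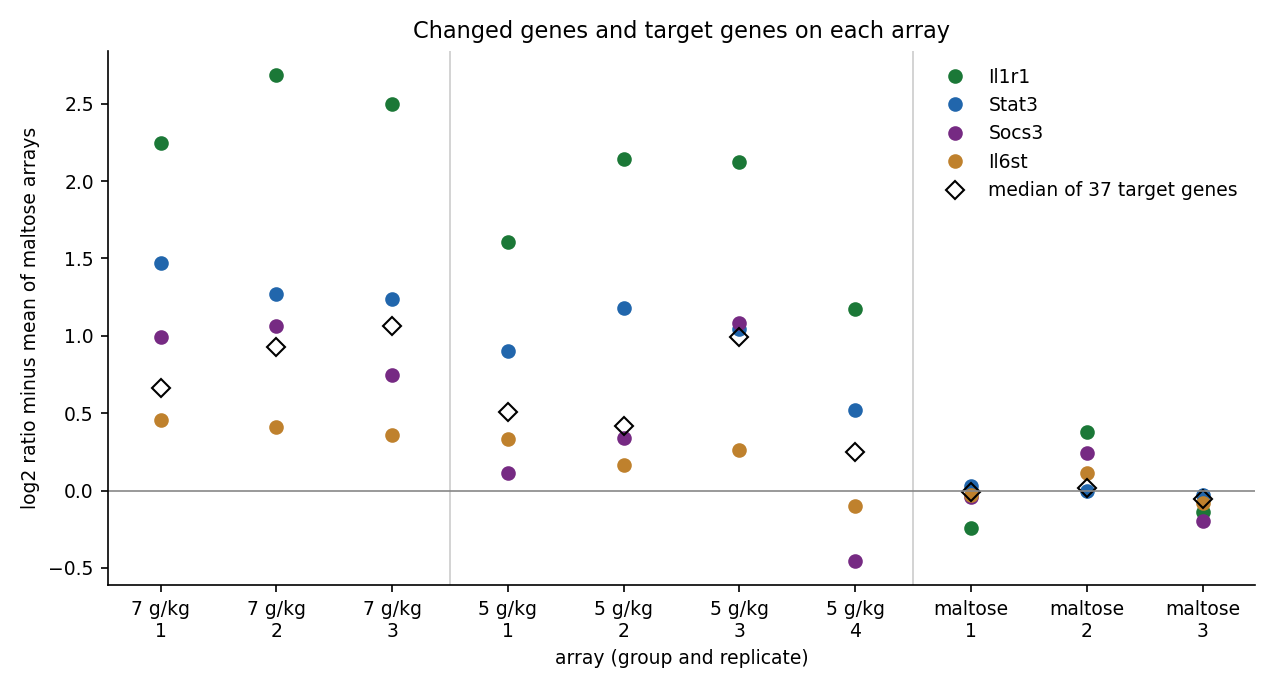
Log2 ratio minus the mean of the maltose arrays (vertical axis) for the 4 called genes and the median of 37 hepatocyte target genes on each array (horizontal axis). At 7 g/kg the target median was 0.66 to 1.06, at 5 g/kg 0.25 to 0.99, lowest on replicate 4.

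Among genes that these pathways act on in hepatocytes, many were higher at 7 g/kg and fewer at 5 g/kg. Of 37 tested genes on a list of 41 acute-phase and inflammatory targets, 22 were higher and 0 lower at 7 g/kg. At 5 g/kg 13 were higher, 1 lower and 23 not called, and 11 were higher and 0 lower at 7 against 5 g/kg. Of all features, 4.59%, 2.17% and 0.648% were called higher in these comparisons. The list was chosen with earlier results of these data known. The 1 lower gene was Pim3, a kinase, at -0.84 (adjusted p = 0.0319), named after its value was seen. The median log2 change of the list was 0.82 at 7 g/kg, 0.48 at 5 g/kg and 0.43 between the doses. Lcn2, an iron-binding acute-phase protein, was at 0.45, 1.69 and 0.73 at 7 g/kg, at -0.46, -1.19, -0.06 and -2.73 at 5 g/kg, and at -4.52, -4.30 and -4.14 after maltose. No group overlapped another, and the changes were 5.27 at 7 g/kg and 3.21 at 5 g/kg. Fga, a fibrinogen chain, changed by 2.26 at 7 g/kg (adjusted p = 1.92e-06) and 1.45 at 5 g/kg. Haptoglobin (Hp) changed by 2.02 and 1.88, Serpina3n by 2.61 and 1.54, and Orm1 by 2.87 and 1.31 at those doses. The chemokine Cxcl1 was higher at 7 g/kg by 2.67 (adjusted p = 0.000113), while its 0.79 at 5 g/kg did not pass (adjusted p = 0.193), and the doses differed by 1.88 (adjusted p = 0.00464). The C/EBP factors Cebpb (0.51, adjusted p = 0.0605) and Cebpd (0.27) did not pass at 7 g/kg.

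**Figure D4:**
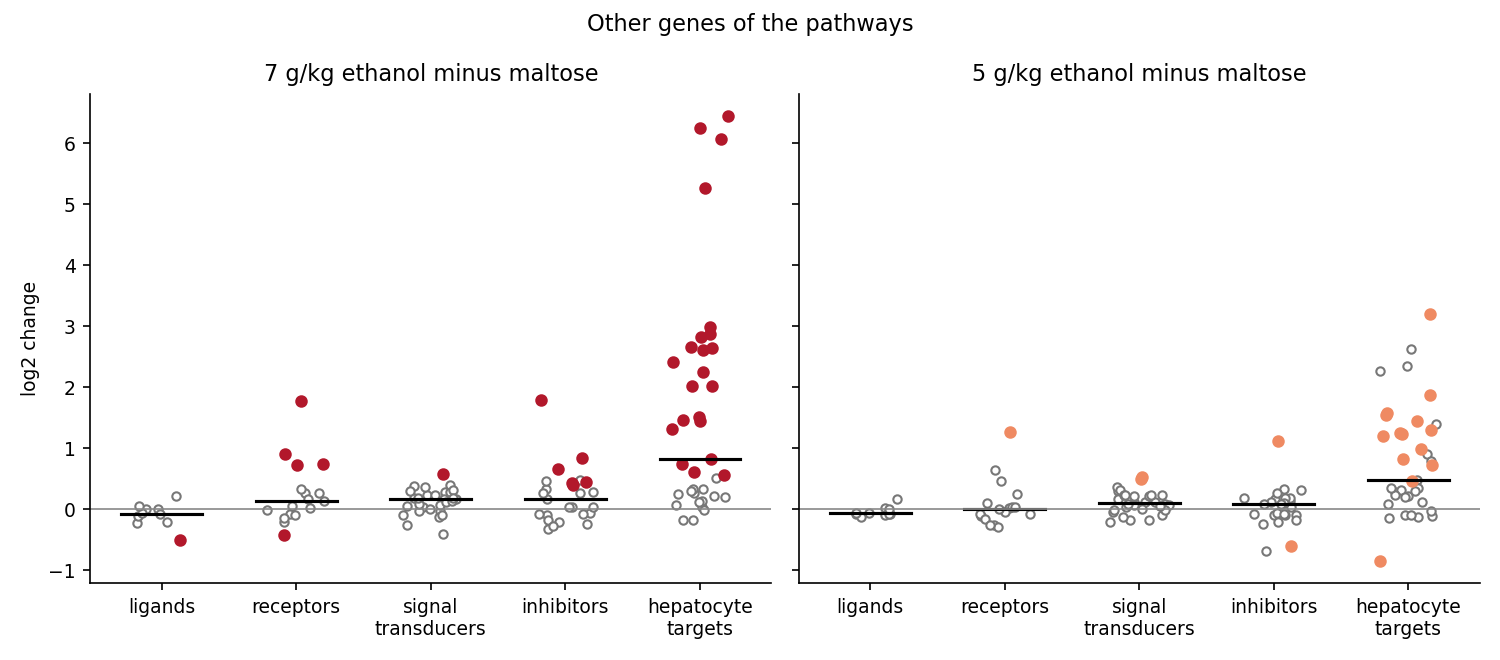
Log2 change from maltose (vertical axis) of the other genes of the pathways by role, 7 g/kg on the left and 5 g/kg on the right; filled points passed at an adjusted p under 0.05 and black lines are medians. The hepatocyte targets have medians of 0.82 and 0.48.

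Of 25 genes tested on a list of 26 grouped as inhibitors, 6 were higher and 0 lower at 7 g/kg, and 1 was higher and 1 lower at 5 g/kg. Not all need act only as inhibitors, and their action in these livers was not tested. Of all features, 4.59% and 2.17% were called higher at those doses, and 4.33% and 1.55% lower. Bcl3, a nuclear IkappaB protein, was at 0.17, 0.20 and 0.36 at 7 g/kg, at -0.67, -0.38, 0.41 and -1.06 at 5 g/kg, and at -1.58, -1.30 and -1.75 after maltose. Every ethanol array lay above every maltose array, with changes of 1.79 (adjusted p = 0.000586) at 7 g/kg and 1.12 (adjusted p = 0.02) at 5 g/kg. Nfkbib, a relative of Nfkbia, changed by 0.84 at 7 g/kg (adjusted p = 9.33e-05), and the doses differed by 0.51 (adjusted p = 0.0115). Tnfaip3 (A20), which edits ubiquitin on NF-kappaB signalling proteins, changed by 0.43 (adjusted p = 0.0296, and 0.114 with slide as a block). Nfkbiz, a nuclear IkappaB protein, changed by 0.66 (adjusted p = 0.0401, and 0.121 with slide as a block), and the phosphatase Ptpn1 by 0.45 (adjusted p = 0.0311), where a second probe gave 0.31 and did not pass. At 5 g/kg Zfp36, which destabilises cytokine mRNAs, was lower, with a log2 change of -0.59 (adjusted p = 0.0401, and 0.0575 with slide as a block), where its second probe gave -0.33 and did not pass. The SOCS family members Socs2 (-0.20 at 7 g/kg and -0.69 at 5 g/kg) and Cish (0.49 and -0.07) did not pass.

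Among other receptors, 4 of 17 tested were higher and 1 lower at 7 g/kg, and 1 was higher and 0 lower at 5 g/kg. Over all features, 4.59% were called higher and 4.33% lower at 7 g/kg, and 2.17% higher and 1.55% lower at 5 g/kg. Il1rap, the partner that Il1r1 needs to signal, went the other way from Il1r1. Its log2 ratios were -0.21, -0.22 and -0.07 at 7 g/kg, then -0.09, 0.04, -0.16 and 0.04 at 5 g/kg, and 0.28, 0.27 and 0.20 after maltose. All ethanol arrays lay below all maltose arrays, and the change was -0.42 (adjusted p = 0.0175, and 0.0657 with slide as a block) at 7 g/kg and -0.29 (adjusted p = 0.121) at 5 g/kg. The decoy Il1r2 was higher at 7 g/kg, at 0.74 (adjusted p = 0.0131), but was dim, well above background on 2 of 3 arrays at 7 g/kg and on 1 of 3 after maltose, so the size of this change is uncertain. Its second probe gave -0.03 and did not pass. Il10rb, a chain of the IL-10 and IL-22 receptors, changed by 1.78 (adjusted p = 0.00141) and 1.27 (adjusted p = 0.0188) at 7 and 5 g/kg. The TNF receptor Tnfrsf1a changed by 0.91 (adjusted p = 0.00519) at 7 g/kg, and its 0.64 at 5 g/kg did not pass (adjusted p = 0.0517). For Lifr, the receptor of leukaemia inhibitory factor, the brightest probe gave 0.73 at 7 g/kg (adjusted p = 0.0109, and 0.0583 with slide as a block). At that dose 3 other probes gave -0.08 to 0.00. The brightest probe gave -0.26 at 5 g/kg, which did not pass (adjusted p = 0.477). By this probe the doses differed by 0.99 (adjusted p = 0.0043, and 0.0173 with slide as a block).

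Of 30 tested kinases, adaptors and transcription factors of the pathways, 1 was higher at 7 g/kg and 2 were higher at 5 g/kg, with 0 lower, beside 4.59% and 2.17% of all features called higher. The NF-kappaB subunit Relb changed by 0.58 at 7 g/kg (adjusted p = 0.025, and 0.179 with slide as a block). At 5 g/kg the IL-1 receptor kinase Irak2 changed by 0.52 (adjusted p = 0.027) and Stat2, which carries interferon signals, by 0.51 (adjusted p = 0.0339). The Janus kinases Jak1 (0.28 at 7 g/kg and 0.29 at 5 g/kg) and Jak2 (-0.09 and 0.04) did not pass.

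No ligand was called higher at either dose, among 10 tested of 15, beside 4.59% of all features at 7 g/kg and 2.17% at 5 g/kg. Lif was matched to no probe. Il6 itself was well above background on 1 of 10 arrays, a 5 g/kg array, and was not tested. Its log2 ratios were 0.09, 0.36 and 0.29 at 7 g/kg, then 0.10, 0.12, 0.48 and 0.05 at 5 g/kg, and 0.12, 0.02 and -0.00 after maltose. Apart from that 1 array the signal was not well above background, so the order of these values was not read. Osm (0.00 at 7 g/kg and 0.17 at 5 g/kg), Il1a (-0.06 and -0.06) and Tnf (0.06 and -0.06) did not pass. Clcf1, a cytokine of the IL-6 family, was lower at 7 g/kg, with a log2 change of -0.50 (adjusted p = 0.00516), and the doses differed by -0.42 (adjusted p = 0.0364, and 0.0712 with slide as a block).

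All 8 hepatocyte markers on the array were well above background on all arrays, but so were 5 of 7 exocrine pancreas markers, so this measure does not tell tissues apart here. Of 7 tested hepatocyte markers 2 were higher and 1 lower at 7 g/kg, with changes of -0.77 to 0.71, and 0 were called at 5 g/kg. Their mean log2 ratio to the mixed reference was 0.40 to 0.66 at 7 g/kg, 0.59 to 0.82 at 5 g/kg and 0.31 to 0.42 after maltose. Of 10 tested Kupffer cell and macrophage markers 0 were called at either dose, and their mean log2 ratio ran from -0.43 to -0.09 at 7 g/kg, -0.34 to -0.18 at 5 g/kg and -0.29 to -0.17 after maltose. Of 9 tested neutrophil markers, 2 were higher at 7 g/kg and 0 at 5 g/kg. Of 10 tested lymphocyte markers, 2 were higher at 7 g/kg and 1 at 5 g/kg, and Gzma was not above background on any array. Of 6 cholangiocyte markers, 1 was lower at 5 g/kg, and of 7 exocrine pancreas markers 0 were called at either dose. Beside these counts, 4.59% of all features were called higher and 4.33% lower at 7 g/kg. At 5 g/kg those shares were 2.17% and 1.55%. The part of these cells in the members' changes was not tested.

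For each called member, the 3 genes with the nearest profile over the 10 arrays were found among 13577 genes, by the root mean square difference of log2 ratios set relative to maltose. Nearest to Il1r1 were Thbd (0.37), Serpina3n (0.372) and Tacr2 (0.399). Nearest to Stat3 were Gm5662 (0.137), St3gal1 (0.173) and Tkfc (0.186). Nearest to Socs3 were Eral1 (0.207), Xbp1 (0.234) and Actl6a (0.241), and nearest to Il6st were Ifngr1 (0.0763), Bcl10 (0.0803) and Tex2 (0.0823).

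**Figure D5:**
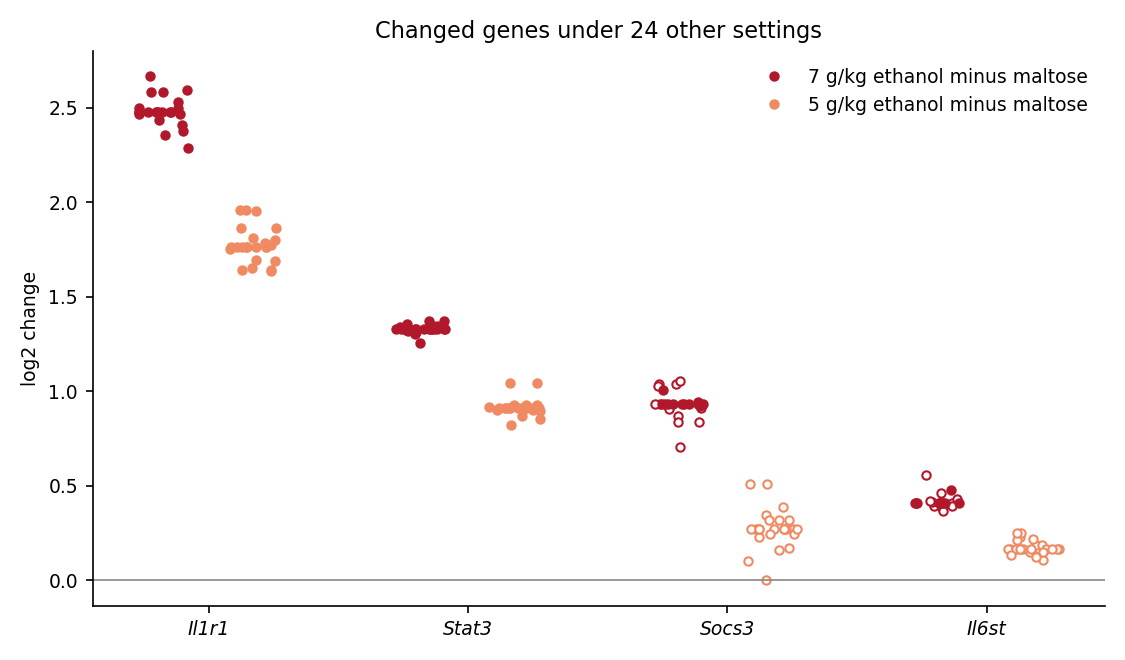
Log2 change from maltose (vertical axis) of the 4 called genes under 24 other settings, 7 g/kg left of 5 g/kg for each gene; filled points passed at an adjusted p under 0.05. Il1r1 and Stat3 passed at both doses in every setting shown, and Socs3 and Il6st at 7 g/kg in some.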

How the data were processed

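Per the file headers, the authors' arrays were read with Agilent Feature Extraction 11.5.1.1, which gave the deposited median intensity of each spot and its background in both channels. That program also wrote the log10 ratio (red over green) found in the deposited scanner output. The authors' series table is in log2 units with liver on top, a scale and direction read from a slope of 0.999 to 1.01 on the scanner ratio. Its column medians were 0.0138, -0.0723 and 0.0759 at 7 g/kg, -0.0416, -0.00959, -0.0652 and 0.045 at 5 g/kg, and 0.0623, 0.0249 and 0.0137 after maltose, and its centring is not given in the sources used here.

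From the median intensities, limma 3.58.1 in R 4.3.3 gave normexp background correction (offset 50) and loess within each array. Control spots and outlier spots (2.42% to 5.83%) were left out. Probes needed a liver channel well above background on 3 arrays and 2 values in each group, and 32618 of 41174 passed. Symbols were found for 24375 probes (59.2%), and the brightest probe stood for a gene, which left 26715 features. The median liver signal was 121 to 219 and 67.3% to 86.2% of spots were well above background. Precision is limited by how many arrays there are. All 10 arrays entered 1 fit of 3 group means with eBayes, two-sided, adjusted by Benjamini-Hochberg. The fit was tested on simulated log2 ratios with known changes, and the steps before it were not.

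Each of 4 slides held more than 1 group, so slide was tried as a block. Deviations of same-numbered arrays from their group means had correlations of -0.198 to 0.192 over 9 pairs, 3 over 0.1. So few pairs cannot settle whether numbers pair the arrays, and the main fit did not use them. Beside the members, up to 4 genes of each pathway list with the smallest p among those called at 7 g/kg, 2 at 5 g/kg and 2 between the doses were named, with some named whatever their result. A gene of the latter kind is not reported here. The members and lists were chosen with earlier results of these data known.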

Additional observations from a re-analysis of the deposited data

Results flagged for a closer look

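Among 54 genes searched, 1 had a 5 g/kg array far from the other 3. For Il1a, an IL-1 cytokine, 5 g/kg replicate 4 had a log2 ratio of 0.343, against -0.427 to -0.42 on the others. The gap was 0.991 of the whole range of the group. A second, dimmer probe of Il1a had -0.0368 on replicate 4, against -0.0106 to 0.182 on the others, and did not show it. How often chance alone sets an array apart in this way among 54 genes was not tested.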

How the results depend on the processing

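Stat3 and Il1r1 were called at both doses in all 25 alternatives with a test. The highest adjusted p was 0.0488 for Stat3 at 5 g/kg, close to the threshold, and 0.00719 for Il1r1 at that dose. The 25 include an adjusted p under 0.1, which could not lose a call. Stat3, Il1r1, Socs3 and Il6st had a single probe each. The mean over probes and the setting with other probes therefore left their values unchanged. For 7 g/kg against maltose, 2 members in place of 4 were called with the scanner log ratio, the series table, Cy5 alone after quantile normalization, and slide as a block. Socs3 also lost its call with trended and robust empirical Bayes settings, and Il6st with no background subtraction and with outlier spots kept. Leaving out 1 array at a time, 2 to 4 were called at 7 g/kg, and 0 to 1 between the doses, the 1 being Socs3 without 5 g/kg replicate 3. With the replicate number as a block, 2, 4 and 0 members were called at 5 g/kg, at 7 g/kg and between the doses, as without it. Junb, a target gene given here because its direction turned, had a log2 difference of 0.96 between the doses. It was -0.088 in the series table and -0.00645 with outlier spots kept, and the cause was not tested. A second probe of Junb, well above background on all 10 arrays, did not pass the filter of the main fit. Which probe stood for Junb in those settings was not recorded. Of all features, 994, 2383 and 411 were called at 5 g/kg, at 7 g/kg and between the doses, against 528, 1727 and 115 with the scanner log ratio, 586, 1832 and 138 with the series table, and 118, 588 and 46 with Cy5 alone. The replicate block called 260 between the doses. At an adjusted p under 0.1 the counts were 1561, 3261 and 629. Median centring in place of loess moved the share of calls that were higher to 75.4%, 66.8% and 52.2%, against 58.4%, 51.5% and 42.1%. Leaving out 1 array at a time, 471 to 1062 features were called at 5 g/kg, 1513 to 2373 at 7 g/kg and 215 to 432 between the doses. Mean spot signals were planned as an alternative and not run, since the columns used here hold medians. Dim probes such as Osmr, Il6 and Il1b limit what could be seen.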
